A study of Rattus norvegicus with 9 samples.

Results

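The genes described here drive the last part of the cell cycle, from G2 phase to the separation of the daughter cells. They were chosen as a list of 40 G2 and mitosis genes by symbol, and 38 of them were in the count table, among 17337 genes. Kif4a and Anln were not analysed here. Expression was measured by RNA sequencing in cultured cardiac fibroblasts, the connective-tissue cells of the heart that make its matrix, from Sprague Dawley rats of 3 ages. The donors were fetuses at embryonic day 18 for the fetal group, pups at postnatal day 1 for the neonatal group and rats aged 7 weeks for the adult group, with 3 libraries each. No treatment, transgene or sorting is named for any group, and all cultures were freshly isolated cells grown to confluency in flasks with serum and ascorbic acid. The labels do not say whether the 3 libraries of an age came from separate animals or litters, so the p-values measure only the spread between these libraries, which may be technical.

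A cell enters mitosis when cyclin-dependent kinase 1, bound to a B-type cyclin, becomes active. Chromosomes condense, the spindle attaches to kinetochores, a checkpoint waits for every attachment, and the anaphase-promoting complex then destroys cyclin B and securin so that sister chromatids part. Most of these genes are transcribed in G2 and M phase and are held low in resting cells, where the DREAM complex occupies a promoter element called the CHR (cell cycle genes homology region). In dividing cells the MuvB core of that complex binds the same element together with B-MYB and FOXM1, and the factor NF-Y binds CCAAT boxes nearby. Culture at confluency is a setting in which fibroblasts are known to slow their division.

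The libraries held 13392825 to 22850491 assigned counts. Levels are given as counts per 1000000 assigned counts after TMM scaling (CPM), listed in the order of replicates 1, 2 and 3. Fetal replicate 3 stood apart, with a mean distance of 77.3 to the other fetal libraries on the log2 CPM scale against 51.1 and 50.9 for replicates 1 and 2. Of the 10 fibroblast markers, Col1a1 and Col3a1 were abundant at every age, with means of at least 9468 CPM, while the entry named Col1a2 was below 1 CPM on average at each age. In the counting annotation that entry runs from 29529854 to 31569152 on chromosome 4, far wider than the gene in RefSeq, so its count is uncertain and is no measure of the gene's expression. The summed fibroblast markers were 50437, 47658 and 23654 CPM in fetal libraries, 67927 to 74193 in neonatal and 22236 to 29822 in adult libraries. The 8 epithelial markers summed to 51.2, 51.1 and 429 CPM in fetal libraries and to at most 9.97 CPM in any other. The 12 macrophage markers summed to 14.99 to 70.8 CPM in fetal, 166 to 183 in neonatal and 4182 to 5845 in adult libraries, with Cd163 at 0 in fetal and neonatal libraries. The 11 measured cardiomyocyte markers summed to 9617 to 13744 CPM in fetal, 6282 to 6912 in neonatal and 305 to 319 in adult libraries, with Csrp3 at 0 in adult ones. Ranges over all libraries were 14.6 to 112 CPM for 9 endothelial, 312 to 2780.1 for 8 mural, 0.674 to 1.72 for 6 erythroid and 5.20 to 8.74 for 5 Schwann cell markers. The part of these other cells in the results below was not tested.

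Promoter sequences from RefSeq (assembly GRCr8) were found for 33 of the 38 genes. Ccna2, Aurkb, Ube2c, Tpx2 and Racgap1 had no entry. The windows ran from 250 bases before to 50 bases after the annotated start, and both strands were searched for the CHR letters, TTTGAA or TTCGAA, and for CCAAT. These motifs can share a base, since TTTGAA ends and ATTGG, the reverse of CCAAT, begins with A, as they do in Mki67 and Cdca8. The CHR letters stood in 25 of the 33 windows (75.8%), against 19.5% of 27456 rat promoters of that length and 13.8% of the 10495 whose gene had a count here. CCAAT stood in 26 of 33 (78.8%), against 37.7% of all promoters, and both stood in 21 of 33 (63.6%), against 7.83%. From 100 bases before the start onward, 24 of 33 windows (72.7%) held the CHR letters, against 8.68% of all promoters. A match describes the letters and is not evidence of binding in these cells.

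The 120 bases before the start are shown for 10 genes whose values recur below, 5′ to 3′ on the gene's strand, with the CHR and CCAAT letters, in either orientation, in capitals. They were picked to show the arrangements found: a CHR downstream of a CCAAT box, adjoining or overlapping motifs, only 1 of the motifs, and none in this stretch.
Cdk1 (chr20:19265173-19265292, plus strand): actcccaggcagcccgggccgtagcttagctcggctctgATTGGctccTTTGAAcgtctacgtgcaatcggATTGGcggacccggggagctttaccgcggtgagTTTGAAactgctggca
Top2a (chr10:84473094-84473213, minus strand): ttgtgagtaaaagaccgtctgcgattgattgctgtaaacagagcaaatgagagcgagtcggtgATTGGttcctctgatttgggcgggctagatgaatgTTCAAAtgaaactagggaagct
Prc1 (chr1:143659361-143659480, plus strand): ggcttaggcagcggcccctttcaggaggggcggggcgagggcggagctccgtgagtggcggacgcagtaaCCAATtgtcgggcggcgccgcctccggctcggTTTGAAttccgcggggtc
Kif22 (chr1:191080879-191080998, minus strand): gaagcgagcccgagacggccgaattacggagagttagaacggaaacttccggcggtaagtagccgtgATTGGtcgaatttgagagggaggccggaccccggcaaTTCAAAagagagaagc
Pttg1 (chr10:28406327-28406446, minus strand): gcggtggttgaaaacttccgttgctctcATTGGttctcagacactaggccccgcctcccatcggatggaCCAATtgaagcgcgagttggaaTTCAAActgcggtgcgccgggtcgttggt
Kif23 (chr8:71320585-71320704, minus strand): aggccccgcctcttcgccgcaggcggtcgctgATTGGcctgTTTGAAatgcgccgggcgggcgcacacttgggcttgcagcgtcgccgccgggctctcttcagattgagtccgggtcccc
Mki67 (chr1:199952594-199952713, minus strand): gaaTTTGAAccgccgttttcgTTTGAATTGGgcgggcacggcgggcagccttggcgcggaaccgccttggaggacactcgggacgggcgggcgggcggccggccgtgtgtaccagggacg
Birc5 (chr10:103572026-103572145, plus strand): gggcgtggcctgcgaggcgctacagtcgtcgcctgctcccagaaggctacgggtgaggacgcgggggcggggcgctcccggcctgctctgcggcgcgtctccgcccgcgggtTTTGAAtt
Ccnb1 (chr2:33655226-33655345, minus strand): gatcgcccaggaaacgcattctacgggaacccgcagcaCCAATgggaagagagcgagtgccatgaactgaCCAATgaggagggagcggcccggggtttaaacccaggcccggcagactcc
Ndc80 (chr9:118887530-118887649, minus strand): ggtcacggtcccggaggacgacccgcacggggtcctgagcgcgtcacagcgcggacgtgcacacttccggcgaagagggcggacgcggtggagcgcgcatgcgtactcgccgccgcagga

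In Cdk1, Prc1, Top2a and Kif22 the CHR letters began 33, 32, 35 and 37 bases after the first base of the last CCAAT box before them. With the spacing set at 30 to 40 bases after these sequences were seen, 8 of the 33 windows (24.2%) held such a pair (Cdk1, Cdc25b, Ttk, Cdc20, Kif22, Prc1, Ect2 and Top2a), against 0.499% of all promoters. Kif23 and Mki67 carry both motifs close together at the upstream end of the stretch. Birc5 has the CHR letters 8 bases before its start, Ccnb1 has CCAAT boxes and no CHR letters, and Ndc80 has neither in these bases. Members with the CHR letters numbered 17 of 23 that were lower in neonatal than fetal cells and had a window, and 8 of 10 that were not called. For adult against neonatal cells the same counts were 8 of 11 lower, both of the 2 higher and 15 of 20 not called.

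The RNA of the G2 and mitosis genes was highest in fetal cells and lower in neonatal and adult cells. Summed over the 38 genes it came to 2335, 2342 and 3700.02 CPM in the fetal libraries, 1875, 1845 and 1870.2 CPM in the neonatal and 1212, 1479 and 1606 CPM in the adult libraries. The 3 ages did not overlap in this sum, which took from 0.117% to 0.428% of a library's counts. Means were 2792 ± 786, 1863 ± 15.8 and 1432 ± 201 CPM (SD, n = 3), with 2338 CPM for the fetal libraries when replicate 3 was left out. In bulk RNA, fewer dividing cells and less of these transcripts per dividing cell cannot be told apart.

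All 38 genes passed the filter on low counts, with 11 counts (Hmgb2 in an adult library) as the smallest value in any library. Every fitted difference from fetal cells was negative. With edgeR's quasi-likelihood test at an adjusted p under 0.05, 23 of the 38 were lower and 0 higher in neonatal than in fetal cells, where 18.0% of the 11337 genes tested were lower and 18.3% higher. The median log2 fold change was -0.63, against -0.01 over all genes tested. Adult cells had 29 lower and 0 higher than fetal cells (35.5% and 34.9% of all genes) and a median of -0.94 (all genes -0.01). No member was higher in either comparison at an unadjusted p under 0.05, nor by DESeq2. Between adult and neonatal cells 13 were lower and 2 higher (31.8% and 31.6% of all genes), with a median of -0.26 (all genes -0.01), so the share lower was near that of all genes. Testing for a difference between any of the ages gave 29 genes (76.3%), close to the 77.6% of all genes.

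The direction was shared within libraries as well as in the means. The libraries of the neonatal and fetal groups did not overlap for 34 genes, all lower in neonatal cells, against 28.1% of all genes; the exceptions were Cdc25b, Nusap1, Racgap1 and Hmgb2. Adult and fetal libraries did not overlap for 29 genes, all lower in adult cells (35.8% of all genes), and adult and neonatal libraries for 19 that were lower (38.5%) and 3 that were higher in adult cells (37.6%), namely Aurka, Birc5 and Pttg1. The means ranked from high to low in the order fetal, neonatal, adult for 29 genes and fetal, adult, neonatal for 9 (Ccnb2, Aurka, Birc5, Cdca8, Cdc20, Ube2c, Pttg1, Cenpa and Kif22), orders held by 27.9% and 7.74% of all genes. For 16 genes every fetal library lay above every neonatal one and every neonatal above every adult one (13.5% of all genes).

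**Figure D1:**
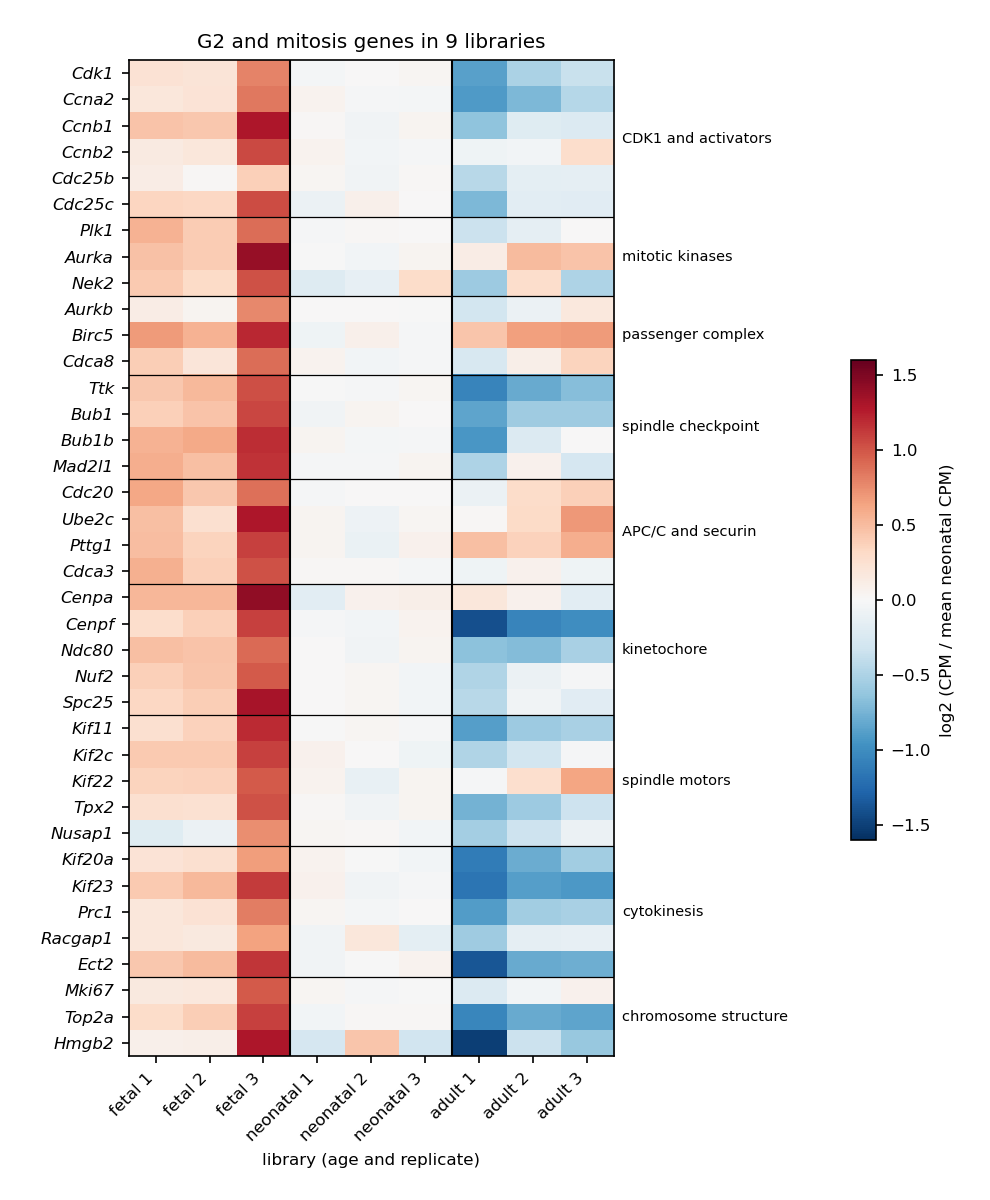
Abundance of the 38 G2 and mitosis genes (rows, grouped by role) in 9 libraries (columns), as log2 of CPM over the gene's mean neonatal CPM. Fetal replicate 3 is the reddest column for every gene, and the adult columns are mostly blue except for genes such as Birc5 and Pttg1.

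Fetal replicate 3 had the highest level of the 9 libraries for all 38 genes, as it did for 23.7% of all genes tested. It stood at 1.24 to 2.29 times the mean of the other fetal libraries, with a median of 1.57. Without it 20 genes were lower in neonatal than fetal cells, all among the 23, and the median log2 fold change was -0.37. Of all 11519 genes tested in that fit, 2260 were lower. Fetal replicates 1 and 2 both lay above every neonatal library for 34 of the 38 (35.3% of all genes). In the adult comparison 28 of the 29 remained without it, with a median of -0.66. Of all 11519 genes tested, 4318 were lower in adult than fetal cells in that fit. The neonatal libraries agreed closely, with a median coefficient of variation of 3.38% over the genes, against 27.9% in fetal libraries, 3.21% in fetal replicates 1 and 2, and 15.2% in adult libraries. Leaving out neonatal replicate 1, 2 or 3 lowered the 23 calls between neonatal and fetal cells to 8, 8 and 9, while the median stayed between -0.65 and -0.62. Calls fell over the whole table too, from 2040 of 11337 genes lower to 1152 of 11538, 1090 of 11541 and 1111 of 11600. Adult replicate 1 was the lowest adult library for 34 of 38 genes (37.1% of all genes). It also had the lowest macrophage, fibroblast, mural, cardiomyocyte and epithelial marker sums of the adult libraries, and the highest endothelial, erythroid and Schwann cell sums. Without it the median between adult and neonatal cells was -0.15.

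Several calls were lost when 1 library was left out. How many of all genes kept a call in every such fit was not counted, so the member counts below have no background. Between neonatal and fetal cells, 7 genes (Plk1, Birc5, Ttk, Cdc20, Cdca3, Ndc80 and Kif23) were called in each of the 9 fits without 1 library, and the other 16 lost their call without at least 1 neonatal library, at adjusted p from 0.0501 to 0.147 and with the same sign. Between adult and fetal cells 26 were called in each of these fits. The exceptions were Hmgb2, at 0.0704 without adult replicate 1, Mki67, at 0.103 without adult replicate 1 and 0.0756 without adult replicate 2 and just over 0.05 without any 1 neonatal library, and Nek2, at 0.108, 0.109 and 0.0817 without adult replicate 1, adult replicate 3 and fetal replicate 3 and at 0.0505 and 0.0532 without neonatal replicates 1 and 2. Between adult and neonatal cells 10 of the 13 lower genes and Birc5 were called in each fit. Cdk1 was at 0.0571 without adult replicate 1, and Kif11 and Tpx2 lost their calls without adult replicate 1 or 2 or any 1 neonatal library (0.064 to 0.126).

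Of the 6 genes for Cdk1, its cyclins and its activating phosphatases, 2 were lower in neonatal than fetal cells (Ccnb1 and Cdc25c), 5 in adult than fetal cells (all but Ccnb2) and 2 in adult than neonatal cells (Cdk1 and Ccna2). Cdk1 (chromosome 20, 20576377 to 20591509, rn6), the kinase that starts mitosis, was at 125, 122 and 185 CPM in fetal, 104, 107 and 108 CPM in neonatal and 58.4, 74.6 and 83.2 CPM in adult libraries. Its 3 groups did not overlap, and the adult level was 0.501 times the fetal one. From neonatal to adult cells it fell by 0.56 on the log2 scale (SE 0.17, edgeR adjusted p = 0.0185), and the fetal to neonatal difference, -0.44 (SE 0.17, edgeR adjusted p = 0.075), missed the threshold. Over both steps the difference was -0.996 (SE 0.17, edgeR adjusted p = 0.000692). Ccnb1 (chromosome 2, 30782133 to 30791106), the main mitotic cyclin, was at 88.9, 87.1 and 158 CPM in fetal, 65.4, 61.9 and 66.3 CPM in neonatal and 41.4, 56.6 and 55.3 CPM in adult libraries. Its steps also did not overlap, and it fell by 0.79 from fetal to neonatal cells on the log2 scale (SE 0.22, edgeR adjusted p = 0.0251). The further difference to adult cells was -0.34 (SE 0.23, edgeR adjusted p = 0.225), not past the threshold. Ccna2, the cyclin of S and G2 phase, had means of 73.8 ± 20.2, 54.05 ± 1.68 and 33.7 ± 5.21 CPM (SD, n = 3) and fell between neonatal and adult cells (log2 -0.68, SE 0.18, edgeR adjusted p = 0.00878). The phosphatase Cdc25b was the least changed of the 38 between neonatal and fetal cells, at log2 -0.18 (SE 0.11), and its relative Cdc25c had -0.61 (SE 0.21, edgeR adjusted p = 0.0493). The entry named Ccnb2 is a single exon of 1491 bases on chromosome 1 (21145356 to 21146846) in the counting annotation, whereas RefSeq places Ccnb2 on chromosome 8, so its counts are uncertain.

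Of the 3 mitotic kinases, 2 (Plk1 and Aurka) were lower in neonatal and 2 (Plk1 and Nek2) lower in adult than in fetal cells, and none differed past the threshold between neonatal and adult cells. Plk1 (chromosome 1, 192115993 to 192125969), a kinase of centrosome maturation and mitotic entry, stood at 80.2, 72.6 and 102 CPM in fetal, 53.8, 55.2 and 54.8 CPM in neonatal and 42.9, 49.3 and 54.9 CPM in adult libraries. The fetal libraries were all above the others, and adult replicate 3 lay within the neonatal range. Its log2 fold change was -0.63 (SE 0.13, edgeR adjusted p = 0.00526) for neonatal against fetal cells and -0.79 (SE 0.13, edgeR adjusted p = 0.000423) for adult against fetal cells. Aurka (chromosome 3, 170364179 to 170378204), the centrosomal Aurora kinase, was at 32.1, 30.95 and 61.3 CPM, 23.2, 22.5 and 24.1 CPM and 25.2, 32.9 and 32.1 CPM at the successive ages. Every adult library lay above every neonatal one, but that difference was 0.37 (SE 0.25, edgeR adjusted p = 0.224). Fetal replicate 3 was at 1.94 times the mean of the other fetal libraries for this gene, and without it the same difference was 0.37 (adjusted p = 0.00672). Nek2, a kinase of centrosome separation, was low, at 1.91 to 5.79 CPM, and was called lower in adult than fetal cells only (log2 -0.82, SE 0.31, edgeR adjusted p = 0.0362).

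The chromosomal passenger complex corrects faulty attachments and acts in cytokinesis, and 1 of its 3 members, Birc5, was called in each step from age to age. Birc5 (chromosome 10, 106856097 to 106864418), which encodes survivin, had 25.1, 22.8 and 35.97 CPM in fetal, 14.9, 16.5 and 15.3 CPM in neonatal and 21.1, 24.5 and 24.9 CPM in adult libraries. Neonatal libraries were below all others, and the fetal and adult ranges overlapped. Survivin RNA fell from fetal to neonatal cells by 0.84 on the log2 scale (SE 0.16, edgeR adjusted p = 0.00434), the smallest adjusted p of the 38. From neonatal to adult cells it rose by 0.59 (SE 0.17, edgeR adjusted p = 0.0112). The kinase of the complex, Aurkb, had means of 42.9 ± 12.7, 33.6 ± 0.210 and 32.3 ± 5.13 CPM (SD, n = 3), with log2 -0.06 (SE 0.19) between adult and neonatal cells. Borealin (Cdca8) was likewise not called in any comparison, at 53.6 ± 13.7, 37.3 ± 1.34 and 39.6 ± 8.24 CPM. The ratio of Birc5 to Aurkb counts within a library, which needs no scaling between libraries, was 0.688, 0.657 and 0.625 in fetal, 0.440, 0.488 and 0.459 in neonatal and 0.767, 0.776 and 0.659 in adult libraries. It was lower in every neonatal library than in any other. This ratio was chosen after the values were seen.

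The spindle checkpoint genes were lower in all 4 cases in neonatal than fetal cells and in all 4 in adult than fetal cells. Ttk (chromosome 8, 91368430 to 91405993), the checkpoint kinase also called MPS1, was at 47.3, 50.6 and 71.8 CPM in fetal, 35.01, 34.7 and 35.99 CPM in neonatal and 16.99, 20.2 and 21.9 CPM in adult libraries, 3 separate ranges. It fell at both steps, by 0.68 (SE 0.15, edgeR adjusted p = 0.00893) and then by 0.84 on the log2 scale (SE 0.16, edgeR adjusted p = 0.00145). Bub1, a kinase at unattached kinetochores, did the same, with log2 -0.67 and -0.66 (SE 0.17 and 0.17, edgeR adjusted p = 0.0145 and 0.00855). Its partner Bub1b (BubR1) fell at the first step (log2 -0.81, SE 0.23, edgeR adjusted p = 0.0249), and its adult libraries were spread from 22.5 to 42.8 CPM, the highest of them within the neonatal range. Mad2l1, which encodes the checkpoint effector MAD2, fell from 42.7 ± 11.3 to 25.1 ± 0.590 CPM (SD, n = 3) and was at 21.6 ± 4.29 CPM in adult cells.

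For the genes of the anaphase-promoting complex and its substrates, adult means were above neonatal ones except for Cdca3. Between neonatal and fetal cells, Cdc20, Pttg1 and Cdca3 fell, and Ube2c was at log2 -0.75 (SE 0.26, edgeR adjusted p = 0.0542). Pttg1 (chromosome 10, 29020026 to 29025759) encodes securin, which holds back the protease that separates sister chromatids. It had 23.6, 21.6 and 35.9 CPM in fetal, 17.3, 15.6 and 17.6 CPM in neonatal and 23.4, 21.8 and 25.2 CPM in adult libraries, with the neonatal libraries below the rest. It rose from neonatal to adult cells by 0.48 on the log2 scale (SE 0.18, edgeR adjusted p = 0.0398) after a fall of 0.68 (SE 0.18, edgeR adjusted p = 0.016). The rise was not past the threshold without any 1 of the neonatal or adult libraries, with adjusted p from 0.0581 to 0.123. Against fetal cells the adult difference was -0.20 (SE 0.18, edgeR adjusted p = 0.329), or 0.05 (adjusted p = 0.638) without fetal replicate 3. The activator Cdc20 was at 95.01 ± 14.9, 60.4 ± 0.723 and 69.9 ± 11.6 CPM (SD, n = 3), and its adult difference from neonatal cells was 0.21 (SE 0.14, edgeR adjusted p = 0.205). The ubiquitin-conjugating enzyme Ube2c had 42.1 ± 16.9, 25.1 ± 1.23 and 32.4 ± 7.67 CPM and was not called in any comparison. Cdca3, a trigger of mitotic entry that the complex degrades, fell from 43.3 ± 10.2 to 27.1 ± 0.510 CPM and was at 26.7 ± 1.47 CPM in adult cells (SD, n = 3).

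All 5 kinetochore genes were lower in neonatal and in adult than in fetal cells, and 2 of them, Cenpf and Ndc80, fell again between neonatal and adult cells. Cenpf (chromosome 13, 108132499 to 108178609), a large protein of the outer kinetochore, was at 104, 112 and 183 CPM in fetal, 84.2, 83.4 and 89.3 CPM in neonatal and 32.4, 41.2 and 43.1 CPM in adult libraries. Its adult level was 0.293 times the fetal one, and its difference of -1.77 (SE 0.21, edgeR adjusted p = 5.99e-05) on the log2 scale was the furthest from 0 of the 38. The neonatal to adult part was -1.14 (SE 0.21, edgeR adjusted p = 0.00117). Ndc80 (chromosome 9, 119840326 to 119856147), which binds spindle microtubules, was at 35.3, 34.7 and 47.4 CPM, 25.4, 24.4 and 26.2 CPM and 16.1, 15.7 and 17.7 CPM at the successive ages. Both steps were free of overlap and of nearly equal size, -0.63 (SE 0.12, edgeR adjusted p = 0.00469) and -0.62 (SE 0.13, edgeR adjusted p = 0.00232). Its partners in the same complex, Nuf2 and Spc25, fell by 0.63 and 0.76 on the log2 scale at the first step (SE 0.17 and 0.25, edgeR adjusted p = 0.0181 and 0.0388). At the second they stood at -0.19 and -0.22 (SE 0.17 and 0.26), not past the threshold. Cenpa (chromosome 6, 27073262 to 27080738), the histone variant that marks centromeres, was low, with 7.40, 7.36 and 13.7 CPM in fetal, 4.57, 5.34 and 5.44 CPM in neonatal and 5.82, 5.35 and 4.57 CPM in adult libraries. Its fall from fetal to neonatal cells, by 0.89 on the log2 scale (SE 0.25, edgeR adjusted p = 0.0234), was the largest of the 38 in that comparison, and adult and neonatal ranges overlapped.

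Among the spindle motors and microtubule proteins, Kif11, Kif2c and Kif22 were lower in neonatal than fetal cells, and Kif11, Kif2c and Tpx2 in adult than fetal cells. Kif11, the motor that pushes spindle poles apart, had means of 98.5 ± 37.6, 61.9 ± 1.19 and 39.4 ± 5.12 CPM (SD, n = 3) and fell between neonatal and adult cells (log2 -0.65, SE 0.23, edgeR adjusted p = 0.0334). Tpx2, which activates Aurka on the spindle, also fell at that step, by 0.54 (SE 0.20, edgeR adjusted p = 0.0414). The microtubule depolymerase Kif2c was at log2 -0.93 in adult against fetal cells (SE 0.19, edgeR adjusted p = 0.00181). Kif22, a motor on chromosome arms, stood at 64.1, 78.1 and 99.97 CPM in adult libraries, across a range that reached from within the neonatal values to above fetal replicates 1 and 2. Nusap1, which bundles spindle microtubules, was not called in any comparison. Its neonatal libraries, at 29.8, 29.4 and 28.2 CPM, lay above fetal replicates 1 and 2 (25.4 and 27.2 CPM), and its log2 fold change of -0.21 became 0.15 (adjusted p = 0.33) without fetal replicate 3.

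Of the 5 genes of the central spindle and cytokinesis, 2 (Kif23 and Ect2) were lower in neonatal than fetal cells, 4 (Kif20a, Kif23, Prc1 and Ect2) in adult than neonatal cells and all 5 in adult than fetal cells. The difference between the steps was not tested. Kif23 (chromosome 8, 66866086 to 66893179) encodes the motor of the centralspindlin complex and was at 93.4, 99.9 and 151 CPM in fetal, 72.8, 67.1 and 68.9 CPM in neonatal and 30.99, 37.8 and 36.8 CPM in adult libraries. The 3 ranges were far apart, and the adult level was 0.306 times the fetal one. Its log2 fold change was -0.72 (SE 0.17, edgeR adjusted p = 0.0105), -1.71 (SE 0.18, edgeR adjusted p = 2.23e-05) and -0.98 (SE 0.17, edgeR adjusted p = 0.000925) in the neonatal to fetal, adult to fetal and adult to neonatal comparisons. Ect2 (chromosome 2, 112769385 to 112831476), the exchange factor that switches on RhoA at the cleavage furrow, had 56.4, 59.5 and 92.2 CPM, 40.3, 41.6 and 43.6 CPM and 16.2, 23.98 and 24.3 CPM. It too fell at both steps (log2 -0.73 (SE 0.20, edgeR adjusted p = 0.0218) and -0.96 (SE 0.21, edgeR adjusted p = 0.00337)). Kif20a (chromosome 18, 27424328 to 27432814), a motor that brings regulators to the midzone, was at 140.3, 143 and 191 CPM in fetal, 125, 119 and 117 CPM in neonatal and 55.4, 69.3 and 81.5 CPM in adult libraries. Its first step was small and not past the threshold at -0.40 (SE 0.15, edgeR adjusted p = 0.0663), and its second was -0.81 (SE 0.15, edgeR adjusted p = 0.00138). Its exons share 15 bases with those of Cdc23, and reads there could not be assigned to either gene. Prc1, which bundles midzone microtubules, followed the course of Kif20a, with log2 -0.44 and -0.65 (SE 0.16 and 0.17, edgeR adjusted p = 0.0636 and 0.00766). Racgap1, the GTPase-activating partner of Kif23 in centralspindlin, was called lower in adult than fetal cells only (log2 -0.62, SE 0.17, edgeR adjusted p = 0.0096).

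Mki67 and Top2a, both used as markers of proliferation, did not follow the same course. Mki67 (chromosome 1, 207993895 to 208020454), the gene of the Ki-67 antigen that coats mitotic chromosomes, was at 150.2, 151 and 265 CPM in fetal, 137, 132 and 133 CPM in neonatal and 115, 129.7 and 141 CPM in adult libraries. Adult and neonatal ranges overlapped, and their log2 fold change was -0.06 (SE 0.20, edgeR adjusted p = 0.805). Only its difference between adult and fetal cells passed the threshold, at -0.56 (SE 0.20, edgeR adjusted p = 0.0338). That call was lost and its sign turned, to 0.16 (adjusted p = 0.537), when a trend of the fold changes on transcript length, described below, was removed. Top2a (chromosome 10, 86901467 to 86930949), the topoisomerase that untangles sister chromatids, had 166, 178 and 291 CPM, 132, 138 and 137 CPM and 66.04, 77.6 and 76.1 CPM. All 3 ranges were separate, and it fell at both steps, with log2 -0.64 (SE 0.19, edgeR adjusted p = 0.028) and -0.89 (SE 0.19, edgeR adjusted p = 0.00293). Counts of Mki67 per count of Top2a in the same library were 0.904, 0.849 and 0.911 in fetal, 1.04, 0.956 and 0.968 in neonatal and 1.75, 1.67 and 1.85 in adult libraries. Against Cenpf, a transcript about as long as Mki67, the ratio was 1.44, 1.35 and 1.45, 1.63, 1.58 and 1.49 and 3.56, 3.15 and 3.26. Adult libraries were above all others in both ratios, which were chosen after the values were seen. Hmgb2, a chromatin protein, was low throughout, at 0.842 to 5.84 CPM, and was called lower in adult than fetal cells (log2 -1.34, SE 0.44, edgeR adjusted p = 0.0214).

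**Figure D2:**
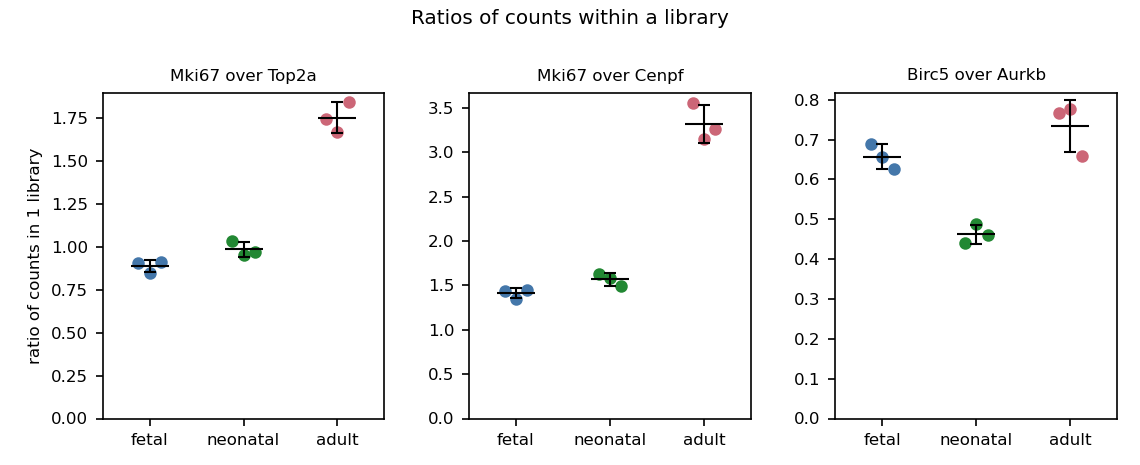
Ratios of raw counts of 2 genes within each library (points, replicates 1 to 3 from left to right), with mean and SD per age. Mki67 rises against Top2a and Cenpf in the adult libraries, and Birc5 against Aurkb is lowest in the neonatal ones.

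**Figure D3:**
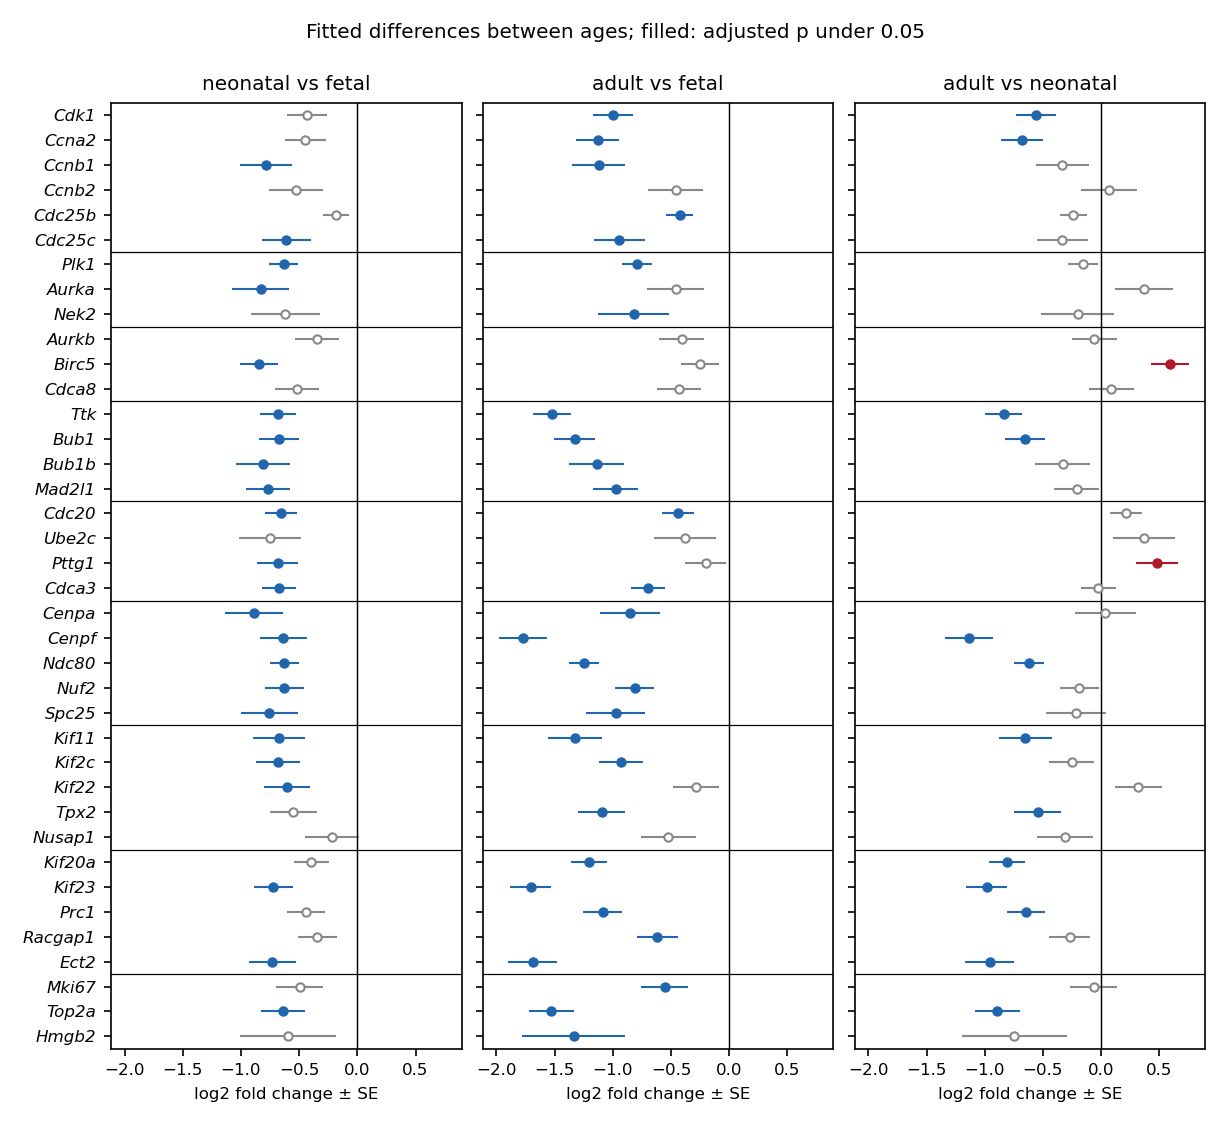
Log2 fold change with its SE for each gene in the 3 comparisons, grouped by role; filled points have an edgeR adjusted p under 0.05, blue lower and red higher in the older age. All points lie left of 0 in the comparisons with fetal cells, and 9 lie right of 0 between adult and neonatal cells.

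Fold changes of all genes in the adult comparisons varied with the length of the transcript, which bears on how the 38 genes rank among themselves. Over genes in 4 equal bins of summed exon length, from short to long, the median log2 fold change between adult and neonatal cells was 0.31, 0.09, -0.09 and -0.38, and between neonatal and fetal cells it was -0.02, -0.01, 0.01 and -0.00. The 9, 10, 12 and 7 members in these bins had medians of -0.21, -0.04, -0.32 and -0.66 between adult and neonatal cells. The members higher in adult cells, Birc5 and Pttg1, have 878 and 957 bases of exon, while Cenpf and Mki67 have 10064 and 9880. With the trend on length removed in each library, an alternative added after the data were seen, 8 of the 13 genes lower in adult than neonatal cells kept their call (Cdk1, Ccna2, Ttk, Ndc80, Kif20a, Kif23, Prc1 and Ect2). Birc5 was then at log2 0.26 (adjusted p = 0.185) and Pttg1 at 0.18 (adjusted p = 0.383), Cenpf at -0.40 (adjusted p = 0.16) and Top2a at -0.50 (adjusted p = 0.0605). Mki67 was called higher in adult cells, at 0.67 (adjusted p = 0.0294). All 23 members lower in neonatal than fetal cells kept their call, as did 27 of the 29 lower in adult than fetal cells, with 5 more called. Of all 11337 genes tested in that fit, 2204 were lower in neonatal than fetal cells. Lower in adult cells were 3861 against fetal and 3168 against neonatal cells.

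**Figure D4:**
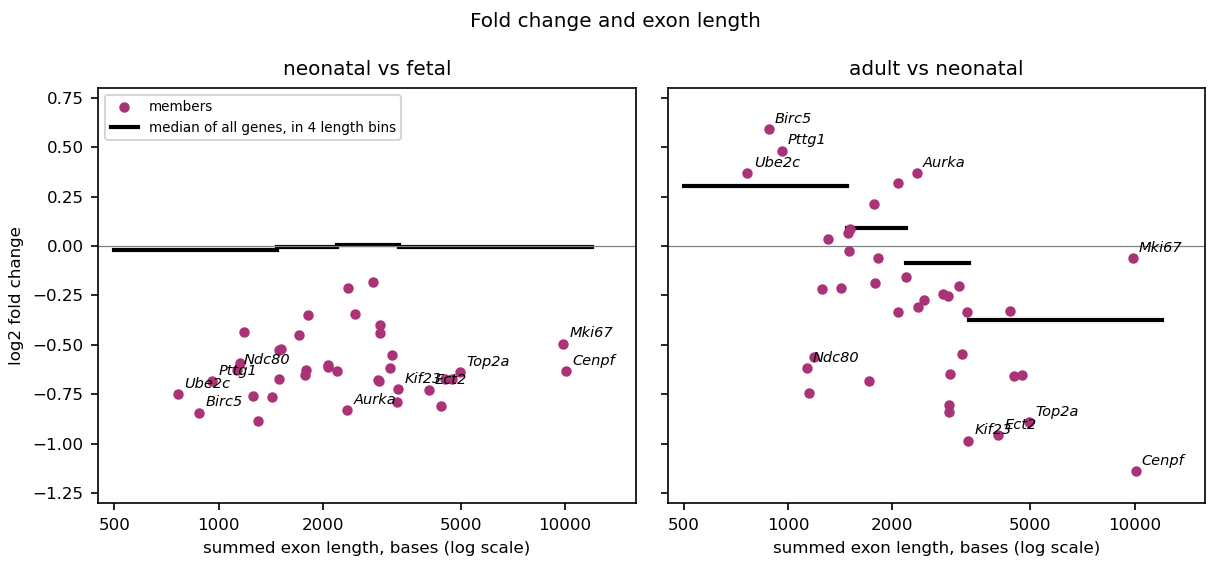
Log2 fold change of the 38 genes (points) against summed exon length on a log axis, for neonatal against fetal and adult against neonatal cells. Black lines are the medians of all genes tested in each of 4 length bins; they are flat near 0 on the left and step down from 0.31 to -0.38 on the right.

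Per kilobase of exon, which takes gene length into account, Cdk1 was the most abundant member at each age, with means of 121, 89.6 and 60.7 CPM per kilobase. Prc1 came second in fetal and neonatal cells (63.03 and 46.4 CPM per kilobase) and Ube2c, the shortest member at 763 bases, in adult cells (42.4 CPM per kilobase). This division does not remove the trend on length in the adult comparisons, so adult ranks of short and long genes are uncertain. Nek2 was the least abundant at each age, at 1.40, 0.916 and 0.790 CPM per kilobase.

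Other genes of the same phase were more often lower than higher with age. Of 69 further G2 and mitosis genes that could be tested, 31 were lower and 0 higher in neonatal than fetal cells, 51 lower and 2 higher in adult than fetal cells, and 32 lower and 4 higher in adult than neonatal cells. The shares lower were 44.9%, 73.9% and 46.4%, against 18.0%, 35.5% and 31.8% of all genes, and in the last comparison 33 of the 69 were not called and 17 had a positive difference. For the first of these comparisons edgeR's unadjusted p under 0.05 and DESeq2 likewise gave 0 higher, and without fetal replicate 3 there were 24 lower and 1 higher. Without neonatal replicate 1, 2 or 3 only 10, 10 and 9 were lower, with medians from -0.48 to -0.45. Of all genes, 1152 of 11538, 1090 of 11541 and 1111 of 11600 were lower in those fits. In the main fit the medians of the 3 comparisons were -0.46, -0.90 and -0.38 on the log2 scale. Zwint (chromosome 20, 17075781 to 17091715), a kinetochore scaffold, had the smallest adjusted p of these in both comparisons with fetal cells, and stood at 329, 317 and 342 CPM in fetal, 159.7, 171 and 167 CPM in neonatal and 107, 106 and 105 CPM in adult libraries. Its 3 fetal libraries lay close together, replicate 3 included, and its log2 fold change was -0.99 (SE 0.06, edgeR adjusted p = 1.09e-05) and then -0.65 (SE 0.06, edgeR adjusted p = 1.3e-05). Gtse1, a microtubule-binding protein of S and G2 phase, fell from 83.98 ± 2.45 to 51.9 ± 1.09 CPM in neonatal cells (SD, n = 3, edgeR adjusted p = 0.000624) and to 34.00 ± 4.59 CPM in adult cells. Cit, the citron kinase of cytokinesis, fell by 1.59 on the log2 scale from neonatal to adult cells (SE 0.16, edgeR adjusted p = 2.18e-05). Fam83d, a spindle protein, fell by 1.28 (SE 0.11, edgeR adjusted p = 8.36e-06). Pkmyt1, a kinase that holds Cdk1 inactive, went the other way, with 10.3, 11.01 and 11.98 CPM in neonatal and 23.3, 28.7 and 32.7 CPM in adult libraries (log2 1.35, SE 0.25, edgeR adjusted p = 0.0011). The kinase Wee1, of the same list, was lower in adult than neonatal cells in each fit, at log2 -0.756 to -0.465.

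The transcription factors that act on these promoters had calls in both directions. Of 19 measured regulators, 2 were lower and 3 higher in neonatal than fetal cells, 7 and 6 in adult than fetal cells, and 5 and 2 in adult than neonatal cells, with medians of -0.17, -0.15 and -0.13. Between adult and fetal cells these were 36.8% lower and 31.6% higher, near the 35.5% and 34.9% of all genes, and in the other comparisons the shares, at 10.5% and 15.8% and at 26.3% and 10.5%, were below those of all genes (18.0% and 18.3%, and 31.8% and 31.6%). With the trend on length removed the last pair was 3 lower and 4 higher, and without fetal replicate 3 the first was 0 lower and 4 higher. Foxm1 (chromosome 4, 161685283 to 161696304) was at 35.8, 39.02 and 49.5 CPM in fetal, 35.3, 35.04 and 34.4 CPM in neonatal and 21.1, 27.8 and 28.5 CPM in adult libraries. It was not called between neonatal and fetal cells (log2 -0.25, SE 0.14, edgeR adjusted p = 0.195) and fell from neonatal to adult cells (-0.43, SE 0.14, edgeR adjusted p = 0.0246), a call lost with the trend on length removed (-0.23, adjusted p = 0.228) and without any 1 neonatal library or adult replicate 1. Mybl2 (chromosome 3, 159421671 to 159450086), the gene of B-MYB, had 61.2, 60.8 and 96.9 CPM, 43.04, 42.2 and 43.1 CPM and 23.8, 35.8 and 42.98 CPM. It fell from fetal to neonatal cells (-0.77, SE 0.23, edgeR adjusted p = 0.0288), a call lost without fetal replicate 3 or any 1 neonatal library, and its adult libraries reached the neonatal level in replicate 3. E2f7, a repressor of the E2F family, and Mybl1 fell from neonatal to adult cells, by 1.32 and 1.82 on the log2 scale (SE 0.22 and 0.37, edgeR adjusted p = 0.000642 and 0.00226). Rbl2 (chromosome 19, 17300089 to 17346808), the p130 subunit of DREAM, was at 33.6, 37.3 and 26.9 CPM in fetal, 61.4, 61.99 and 60.3 CPM in neonatal and 66.3, 61.7 and 58.3 CPM in adult libraries. It rose by 0.91 on the log2 scale from fetal to neonatal cells (SE 0.11, edgeR adjusted p = 0.000415). Among other subunits of the repressing complex, Lin37 and E2f4 rose from neonatal to adult cells by 0.60 and 0.30 (SE 0.09 and 0.08, edgeR adjusted p = 0.000416 and 0.00752). Of the remaining regulators, Tfdp1 was lower in adult than fetal cells in each fit, at log2 -0.417 to -0.257. Rbbp4 and Rbl1 did not pass the threshold in any comparison or fit.

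The S phase list, set beside the 38 genes for comparison, had its calls mostly in the comparisons with fetal cells. Of its 38 genes, 21 were lower and 0 higher in neonatal than fetal cells, 23 lower and 1 higher in adult than fetal cells, and 9 lower and 5 higher in adult than neonatal cells (5 and 7 with the trend on length removed). In the comparisons with fetal cells 55.3% and 60.5% were lower, against 18.0% and 35.5% of all genes, while between adult and neonatal cells the 23.7% lower and 13.2% higher were below the 31.8% and 31.6% of all genes. The 0 in the first comparison was also the count by DESeq2 and at an unadjusted p under 0.05. Without neonatal replicate 1, 2 or 3 the 21 lower became 9, 8 and 6, with medians from -0.47 to -0.44. Of all genes, 1152 of 11538, 1090 of 11541 and 1111 of 11600 were lower in those fits. In the main fit the medians of the S phase list were -0.47, -0.54 and 0.03, against -0.63, -0.94 and -0.26 for the G2 and mitosis genes. Summed over the list, S phase genes were at 1855, 1835 and 2461 CPM in fetal, 1497, 1471 and 1467 CPM in neonatal and 1266, 1445 and 1623 CPM in adult libraries. Neonatal and adult sums overlapped, unlike those of the G2 and mitosis genes. The difference between the lists was not tested.

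**Figure D5:**
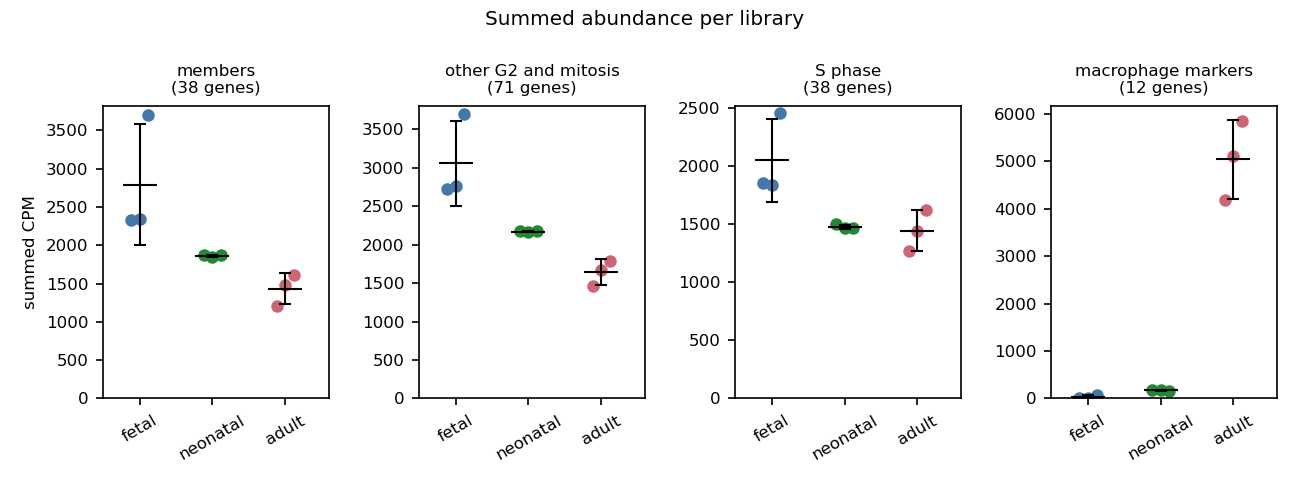
Summed CPM per library (points, replicates 1 to 3 from left to right) with mean and SD per age for the 38 members, 71 other G2 and mitosis genes, 38 S phase genes and 12 macrophage markers. Fetal replicate 3 is the highest fetal point in all 4 panels, and among adult libraries replicate 1 is the lowest and replicate 3 the highest in each.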

How the data were processed

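RNA was measured in 9 libraries, 3 for each age. Per the file headers, the authors made the gene counts with featureCounts 1.6.3 on an rn6 annotation with only the annotation and output options set, so strand was not used. The submitters' processing notes also name FastQC, Trimmomatic 0.39, STAR 2.5.2b, Subread 1.6.3 and DESeq2, without their settings. A second deposited table held normalized signal for 12786 genes, which equalled the counts after division by a factor per library. It was used only for those factors. Exon lengths and coordinates are those of the deposited count table.

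All 17337 genes entered filterByExpr by age, which kept 11337. Counts were scaled by TMM and fitted with edgeR 4.0.16 in R 4.3.3 (robust glmQLFit, glmQLFTest) over all 9 libraries with age as the only term, since 3 libraries per age is few. Benjamini-Hochberg adjustment ran over the whole table of tested genes, with 0.05 as the threshold. The SE of a fold change was computed from its F value. CPM values were computed here with TMM scaling (prior count 2 on the log2 scale). The procedure was tested on simulated data. Over the whole table no pair of libraries of the same age agreed within counting error, with a chi-square per degree of freedom of 2.05 to 97.3. The neonatal pairs came closest, at 2.05 to 2.76. This check was not made on the members alone, and it does not show whether libraries came from separate animals.

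The members, the gene lists and the tests were chosen with earlier results of these data known. Values per library are given for Mki67, Top2a, Cdk1 and Ccnb1 and, for each pair of ages, for the 3 members with the smallest adjusted p, the 3 with the largest change and those called against the main direction. Some further members (Kif22 and Nusap1 among them) are given per library because their libraries overlapped, chosen after their values were seen. Of the other lists, at most 3 genes per direction and pair of ages are named, with Foxm1 and Mybl2. Wee1, Tfdp1, Rbbp4 and Rbl1 were added after their values were seen. Marker lists covered fibroblasts, cardiomyocytes, macrophages, endothelial, mural, erythroid, epithelial and Schwann cells. Alternatives were DESeq2 1.42.0, the authors' size factors, library size alone, no filter, the replicate number as a block, only the 2 ages compared, each library left out, a log2 fold threshold of 1 and, added after seeing the data, a correction for exon length. Promoters were matched by symbol to RefSeq on GRCr8, and coordinates of that build are given only for promoters.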

Additional observations from a re-analysis of the deposited data

How the results depend on the processing

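Of the fold changes of single members under each alternative, 1642 kept their direction and their side of the threshold, 58 passed it newly, 106 no longer passed it and 18 changed sign. Over the fits without 1 library, the count of members lower in neonatal than fetal cells ran from 8 to 28, and that of all genes from 1090 to 2260. The count of members was 0 with a log2 fold change of at least 1 required. That requirement left 15 of the members lower in adult than fetal cells, and 1 lower and 0 higher in adult than neonatal cells. How many of all genes met it was not counted, so these counts have no background to be read against. With the trend on exon length removed, 8 members were lower and 1 higher in adult than neonatal cells. Of all 11337 genes tested, 3168 were lower and 3563 higher in that fit. With library size alone 1 member was higher, among 3742 of the 11337 genes. The count of members higher in that comparison ran from 1 to 3 over the fits without 1 library, and that of all genes from 3062 to 4153. Library size alone moved the median of all genes to -0.18 between neonatal and fetal cells and to -0.12 between adult and fetal cells, and it lowered the mean neonatal sum of the members to 1768 CPM. The causes of these shifts were not tested. The fits without 1 library also hold fewer samples.

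Signs changed mostly where a difference was near 0. The length correction put Mki67 at 0.161 between adult and fetal cells. Between adult and neonatal cells it gave -0.0588 for Ccnb2, -0.0316 for Cdca8, 0.00562 for Bub1b, -0.0158 for Ube2c, -0.139 for Cenpa and 0.668 for Mki67. Library size alone gave 0.00247 for Aurkb and 0.0373 for Cdca3 in that comparison. Over the fits without 1 library, Nusap1 ran from -0.385 to 0.147 between neonatal and fetal cells and Pttg1 from -0.344 to 0.0526 between adult and fetal cells, both highest without fetal replicate 3. Between adult and neonatal cells the ranges were -0.0589 to 0.127 for Ccnb2, -0.187 to 0.0415 for Aurkb, -0.0690 to 0.231 for Cdca8, -0.0716 to 0.000959 for Cdca3, -0.0487 to 0.124 for Cenpa and -0.133 to 0.00975 for Mki67. Their signs changed without adult replicate 1 (Aurkb, Cenpa and Mki67), adult replicate 3 (Ccnb2, Cdca8 and Cdca3) or neonatal replicate 1 (Cenpa).

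The replicate numbers are shared between ages, but the deviations of same-numbered libraries from their age means correlated at only -0.06 to 0.05 over 9 pairs, and 4 of 9 correlated best with their own number, so the numbers were not taken to pair the samples. With the replicate block 27, 31 and 13 members were lower and 0, 0 and 2 higher in the comparisons of neonatal with fetal, adult with fetal and adult with neonatal cells. Of all 11337 genes tested, 1765, 3912 and 3521 were lower and 1948, 3889 and 3464 higher. With 11 to 5477 counts per member and library, depth limited Hmgb2 most.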
